A study of Mus musculus with 6 samples.

Results

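Complement is the set of plasma proteins, membrane regulators and receptors through which blood tags and lyses microbes and calls in phagocytes. The 31 genes described here encode components, regulators and receptors of that system. They were sought among the 13493 genes compared in livers of mice on high-fat diet, given Vascepa or vehicle beforehand. A probe of its own at or above the intensity filter was found for 26 of the 31 genes. Cd46 and C5ar1 lay under the filter, Masp2 shared its probe with Tardbp, and C3 and Cfd had no probe in the annotation given, so their levels were not analysed here. Every gene measured on its own had a single probe annotated to it alone, so agreement between such probes could not be examined. Shared probes were sought only for genes without a probe of their own.

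The mice were male C57BL/6, 8 weeks old at the start. The vehicle group received vehicle for 7 days and then high-fat diet for 6 weeks. The Vascepa group received Vascepa (icosapent ethyl, a purified ester of eicosapentaenoic acid, which is an omega-3 fatty acid) on the same schedule. Both groups ate the high-fat diet, a model of prediabetes by the study's title, and no group on another diet was analysed here. Each group had 3 samples, each on an array of its own. The labels do not say whether samples within a group were different mice, and the p-values therefore cover only the spread among these arrays, part of which may be technical.

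Activation of complement begins along 3 routes. In the classical route C1q binds antibody and other ligands and the proteases C1r and C1s cleave C4 and C2. In the lectin route mannose-binding lectins, ficolins and collectins bind sugars and carry the MASP proteases, and in the alternative route factors B and D amplify C3 cleavage with properdin as stabiliser. All routes meet at C3 and end in a pore made of C5b, C6, C7, C8 and C9. Hepatocytes make most of the soluble proteins, which makes the liver the main source of plasma complement. The C1q chains, properdin, ficolin A and the anaphylatoxin receptors come mainly from macrophages and other myeloid cells, in the liver above all from Kupffer cells.

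No complement gene passed the test between groups. On the log2 scale the members ran from −0.52 for C1qb to 0.33 for C6 (Vascepa minus vehicle), and 0 of 26 passed an adjusted p under 0.05 (limma, lowest adjusted p = 0.976). Over all 13493 genes, 0 passed, which is 0% of those tested. At an unadjusted p under 0.05 there was 1 member, Mbl2, against 362 genes or 2.68% of all tested. In 1 of 26 members, again Mbl2, the groups did not overlap, against 8.24% of all genes. A share of 1 in 26 is 3.85%, near the background on the first measure and below it on the second. Array quality weights, which gave nearly all weight to Vascepa replicate 2, called 9 of 26 members (34.6%) and 30.4% of all genes.

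More members were lower than higher in the mean of the Vascepa livers, and so were most bright genes. The count was 20 lower and 6 higher, with a median of −0.24, beside 60.1% lower and a median of −0.063 over all genes tested. Among the 7211 genes at or above the 75th percentile of intensity, 73.3% were lower with a median of −0.14, and 19 of the 25 members there (76%) were lower, with a median of −0.25. Against this brighter set the share of lower members is thus near the background, while the members' median was further below 0. The set was not matched to the brightness of the members. Vascepa replicate 3 stood apart from the other arrays, with a mean correlation of 0.938 across genes against 0.959 to 0.973 for the rest. Without it, 18 of 26 members were lower and their median was −0.092, and without vehicle replicate 1 the median was −0.13.

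**Figure D1:**
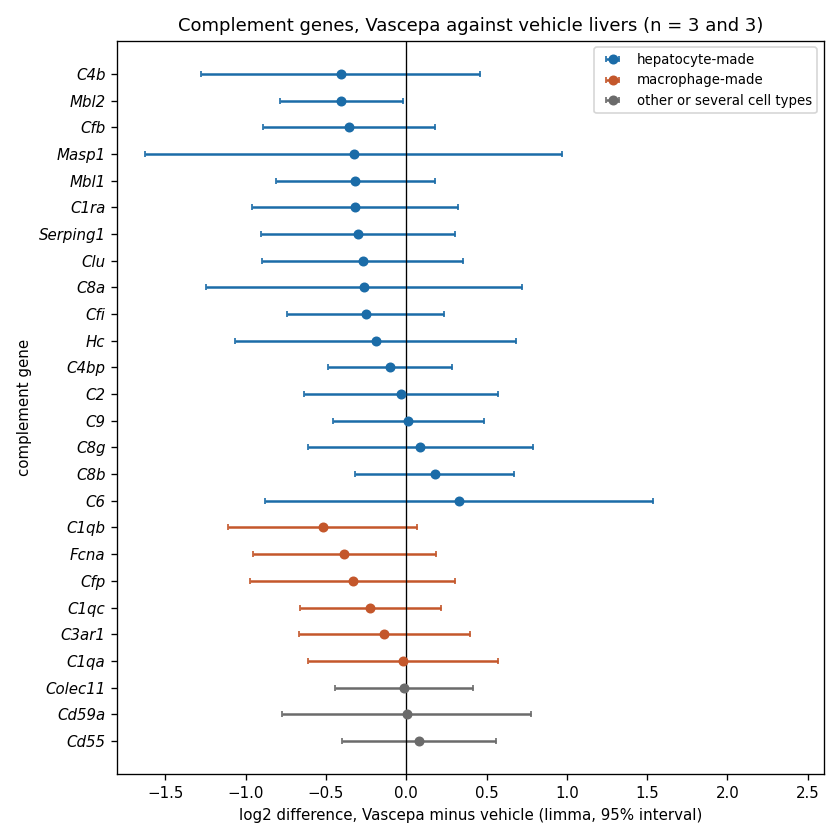
Log2 difference (Vascepa minus vehicle, horizontal axis) of the 26 tested complement genes, with limma's 95% interval as bars, coloured by the cell type that mainly makes each product. The interval of Mbl2, from −0.79 to −0.02, is the one that lies wholly on one side of 0, before any adjustment for the number of genes.

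The lectin route held the member whose groups lay apart. Mbl2 encodes mannose-binding lectin C, a hepatocyte protein that binds sugars on microbial surfaces. It read 9.31, 9.51 and 9.42 on vehicle replicates 1, 2 and 3 and 8.98, 9.01 and 9.04 on the Vascepa arrays. Every Vascepa array was below every vehicle array, and the 3 Vascepa values lay within 0.057 of each other, a range smaller than in all but 0.845% of genes. The difference was −0.40 ± 0.17 (SE, n = 3 and 3), 1.32-fold lower, with a 95% interval of −0.79 to −0.02. It missed the threshold (limma, adjusted p = 0.976). Leaving out single arrays kept it between −0.46 and −0.35, but its unadjusted p stayed under 0.05 only when the array left out was Vascepa replicate 3. Differences are given ± SE throughout.

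Mbl1 encodes the second mouse mannose-binding lectin, mannose-binding lectin A. It read 8.61, 8.17 and 8.34 in vehicle livers and 8.25, 7.76 and 8.16 in Vascepa livers. These groups overlapped, and the difference was −0.32 ± 0.21 with an interval of −0.81 to 0.18. Since both lectin genes were lower in the mean, their promoters are shown, from 250 bases before to 50 after the start site (RefSeq, GRCm38.p6). Capitals mark the bases identical between the genes in the best ungapped stretch, which was sought after the sequences were read and spans 39 bases with 34 identical.

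Mbl2 (chr19:30232678-30232977, plus strand): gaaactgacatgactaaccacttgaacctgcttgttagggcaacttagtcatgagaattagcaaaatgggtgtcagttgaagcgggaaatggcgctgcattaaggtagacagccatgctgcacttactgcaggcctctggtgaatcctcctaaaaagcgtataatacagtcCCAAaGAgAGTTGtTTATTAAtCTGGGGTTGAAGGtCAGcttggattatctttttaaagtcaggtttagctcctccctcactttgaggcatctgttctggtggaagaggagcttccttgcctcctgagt

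Mbl1 (chr14:41151206-41151505, plus strand): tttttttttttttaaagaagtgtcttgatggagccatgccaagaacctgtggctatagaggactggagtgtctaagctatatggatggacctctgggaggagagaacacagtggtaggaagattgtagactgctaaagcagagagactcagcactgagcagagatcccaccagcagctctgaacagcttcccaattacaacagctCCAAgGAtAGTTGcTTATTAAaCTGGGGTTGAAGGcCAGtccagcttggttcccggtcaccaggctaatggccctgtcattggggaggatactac

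The shared stretch ran from −79 to −41 relative to the start site of Mbl2 and from −45 to −7 in Mbl1. It is a description of sequence, and no measurement here bears on what binds there. Neither promoter held the C/EBP letters TTGCNNAA or the STAT letters TTCNNNGAA, searched on both strands as motifs of factors that drive acute phase genes. Over 27025 promoters of the same length, with 1 per gene, these letters were present in 10.8% and 8.47%. Among the 23 members with a promoter in the table, C/EBP letters were in 3 (C1ra, C9 and C3) and STAT letters in 4, the hepatocyte-made ones being C8a, Masp2 and C1ra.

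The other lectin-route genes overlapped between groups, although all 5 tested genes of the route were lower in the mean, as were 60.1% of all genes. Fcna, which encodes the ficolin A of Kupffer cells and other macrophages, read 6.28, 6.56 and 6.19 in vehicle livers and 5.90, 5.58 and 6.39 in Vascepa livers. Vascepa replicates 1 and 2 were below all vehicle arrays and replicate 3 was among them (difference −0.39 ± 0.25). Colec11, a collectin found in stellate and other liver cells, stood at 6.12 ± 0.21 (SD, n = 3) in vehicle and 6.11 ± 0.10 in Vascepa livers, with an interval of −0.44 to 0.42. Of 6 stellate cell markers above the filter, 5 had lower means in Vascepa livers (median difference −0.16), against 60.1% of all genes. The part of stellate cells in the Colec11 value was not tested. Masp2, a protease that cleaves C4 and C2, could be read only through a probe it shares with Tardbp, an RNA-binding protein gene, so that probe names neither gene. The probe read 9.35, 9.44 and 9.41 in vehicle livers and 9.51, 9.21 and 9.03 in Vascepa livers (−0.15 ± 0.19, limma fit that includes shared probes, adjusted p = 0.977). Masp1, which encodes the lectin-route proteases MASP-1 and MASP-3, differed by −0.33 ± 0.56 and is taken up again with the spread between arrays.

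**Figure D2:**
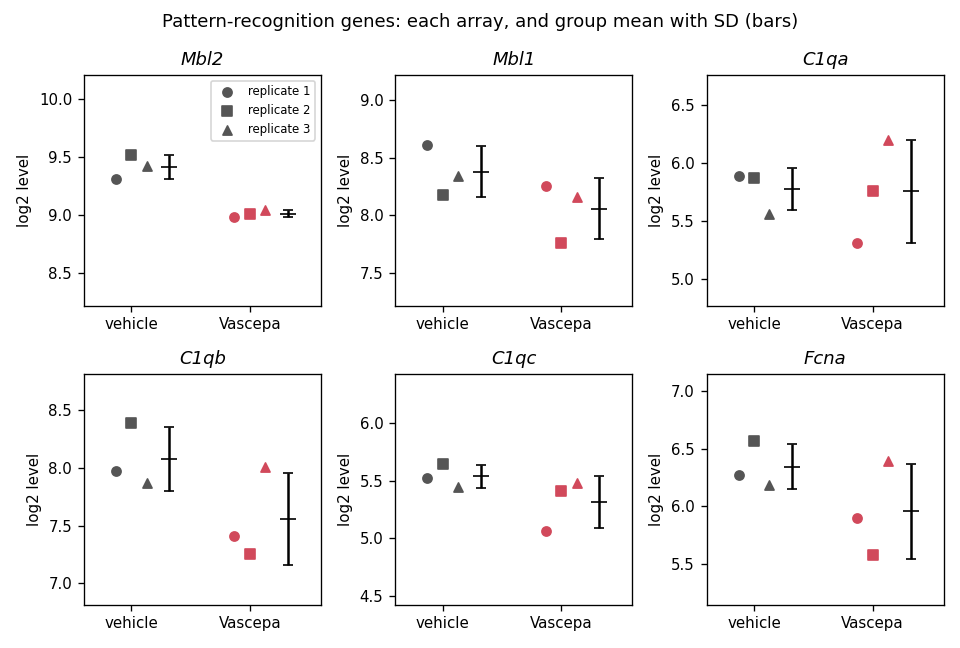
Log2 level of 6 genes of pattern recognition on each array (symbols mark the replicate number), with the group mean and SD (n = 3) beside the points; every panel spans 2 log2 units. The Mbl2 values of the Vascepa livers, 8.98 to 9.04, lie below all vehicle values, whereas the other 5 genes overlap between groups.

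The C1q chains, which assemble into 1 molecule, were uneven. C1qb, the B chain, had the largest difference of all members, at −0.52 ± 0.25 with an interval of −1.11 to 0.07 (limma, adjusted p = 0.976). It read 7.97, 8.39 and 7.87 in vehicle livers and 7.41, 7.26 and 8.00 in Vascepa livers. Vascepa replicates 1 and 2 lay below all vehicle arrays and Vascepa replicate 3 above 2 of them. Without Vascepa replicate 3 the difference was −0.74 (limma, adjusted p = 1.000), and over all single arrays left out it ranged from −0.74 to −0.36.

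C1qa and C1qc, which encode the A and C chains, had smaller mean differences. The 3 genes are neighbours in the RefSeq annotation, in the order C1qb, C1qc, C1qa. C1qa read 5.89, 5.87 and 5.56 in vehicle livers and 5.31, 5.76 and 6.20 in Vascepa livers. Its Vascepa values enclosed the vehicle values, and the difference was −0.02 ± 0.26, with an interval of −0.61 to 0.57. C1qc read 5.52, 5.64 and 5.45 against 5.06, 5.41 and 5.48 (−0.22 ± 0.19), with overlap at a single pair of arrays. Whether the 3 chains differed from each other in their response was not tested.

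Promoters of C1qb and C1qc are shown because both genes belong to the macrophage-made set and lie side by side. Capitals mark the letters GAGGAA or their reverse complement, a core recognised by PU.1, the master factor of myeloid cells.

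C1qb (chr4:136886151-136886450, minus strand): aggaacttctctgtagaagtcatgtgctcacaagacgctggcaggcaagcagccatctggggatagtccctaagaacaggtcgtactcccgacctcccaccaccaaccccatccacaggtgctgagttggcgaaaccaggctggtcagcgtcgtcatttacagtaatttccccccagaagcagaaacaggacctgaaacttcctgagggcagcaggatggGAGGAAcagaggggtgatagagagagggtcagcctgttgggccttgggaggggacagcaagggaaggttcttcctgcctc

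C1qc (chr4:136892865-136893164, minus strand): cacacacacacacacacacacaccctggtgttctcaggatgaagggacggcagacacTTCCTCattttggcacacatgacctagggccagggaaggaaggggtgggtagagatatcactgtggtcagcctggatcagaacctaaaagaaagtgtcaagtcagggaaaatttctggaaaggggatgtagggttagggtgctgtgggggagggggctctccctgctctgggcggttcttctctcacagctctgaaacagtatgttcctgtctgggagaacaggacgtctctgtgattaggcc

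Relative to the start site, the match began at −30 in C1qb and at −193 in C1qc. GAGGAA was present on either strand in 28.3% of all promoters of this length and in 6 of the 23 members with a promoter (26.1%). It was in 4 of 6 macrophage-made members with a promoter in the table (Fcna, C1qb, C1qc and Cfp) and in 1 of 12 hepatocyte-made ones (C1ra). The C/EBP and STAT letters were in none of the 6 macrophage-made promoters, and TATAAA was in C3ar1 alone of them, against 14.2% of all promoters.

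Macrophage-made members were lower in the mean in 6 of 6 tested cases, against 60.1% of all genes, with a median of −0.28. Leaving out Vascepa replicate 3 made it −0.43, and leaving out Vascepa replicate 1 made it −0.16. Cfp, properdin, the stabiliser of the alternative-route convertase, differed by −0.33 ± 0.28, and C3ar1, the receptor of C3a, by −0.14 ± 0.23. C5ar1, the receptor of C5a, was under the filter at 2.10 ± 0.24 (SD) in vehicle and 2.36 ± 0.24 in Vascepa livers, a range where RMA values of expressed and silent genes mix. The medians of the macrophage-made members relative to the vehicle mean were −0.47, −0.36 and 0.033 on Vascepa replicates 1, 2 and 3, so replicates 1 and 2 carried the lower level. On the vehicle arrays they were −0.041, 0.19 and −0.18.

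Markers of Kupffer cells and macrophages moved with these genes in part. Of 12 markers, all above the filter, 10 were lower, against 60.1% of all genes, with a median of −0.16. Their mean levels were 6.35 to 6.40 in vehicle livers and 5.99 to 6.34 in Vascepa livers. Their medians on Vascepa replicates 1, 2 and 3 were −0.41, −0.21 and −0.26. The groups did not overlap in 3 of the 12 (25%), Vsig4, Timd4 and Cd68, against 8.24% of all genes. Shares above 8.24% also held for 2 of 12 hepatocyte markers (16.7%), 1 of 6 stellate cell markers (16.7%) and 1 of 7 sinusoidal endothelial markers (14.3%). The count was 0 for the monocyte, neutrophil, adipocyte and lymphocyte markers. Single macrophage markers did not share an order over the Vascepa arrays. Clec4f, Vsig4, Timd4, Cd5l, Folr2 and Lyz2 were lowest on replicate 1 and highest on replicate 3, as C1qa was, Csf1r, Cd163 and Slc40a1 had the opposite order, and Marco, Adgre1 and Cd68 had neither. Clec4f, a Kupffer cell marker, read 6.67, 7.00 and 7.93, and Csf1r, the receptor that macrophages need to survive, read 6.12, 5.91 and 5.63. In whole liver, fewer macrophages and less RNA per macrophage cannot be told apart, and their part in the C1q, properdin and ficolin values was not tested. Of the monocyte markers 2 of 5 and of the neutrophil markers 3 of 6 were above the filter, with Itgam and Ly6g below it. All 4 lymphocyte markers above the filter had lower means in Vascepa livers (median difference −0.082), beside 60.1% lower and a median of −0.063 over all genes.

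Hepatocyte-made members were lower in the mean in 13 of 17 tested cases (76.5%). That share was 60.1% over all genes and 73.3% over those at or above the 75th percentile of intensity. The members' median of −0.26 was −0.060 without Vascepa replicate 3, −0.10 without vehicle replicate 1 and −0.42 without Vascepa replicate 1. Cfb, factor B, the protease of the alternative-route convertase, averaged 10.19 ± 0.23 (SD) in vehicle and 9.84 ± 0.33 in Vascepa livers. Those groups overlapped, and the difference was −0.36 ± 0.23 (SE). In the classical route C4b, the fourth component, differed by −0.41 ± 0.38, C1ra, a C1r protease, by −0.32 ± 0.28, and C2 by −0.03 ± 0.26. C2 and Cfb are direct neighbours with related products, and their intervals, −0.64 to 0.57 and −0.89 to 0.18, overlap widely. C4b read 9.97, 9.04 and 9.65 in vehicle livers and 9.88, 9.02 and 8.53 in Vascepa livers, so each group alone spanned more than the difference between groups. C1ra and C4b have close relatives in the mouse genome (C1rb and C4a), and how much such copies share their probes' signal was not tested.

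Soluble regulators were lower in the mean in 4 of 4 cases, against 60.1% of all genes, without reaching the threshold. Serping1, the C1 inhibitor, differed by −0.30 ± 0.26, Clu, clusterin, which blocks pore assembly, by −0.27 ± 0.27 and Cfi, factor I, which inactivates C3b and C4b, by −0.25 ± 0.21. Cfi read 11.08, 11.04 and 11.08 in vehicle livers and 11.12, 10.85 and 10.47 in Vascepa livers, so the mean difference came from Vascepa replicates 2 and 3. C4bp, the binding protein that serves as a cofactor of factor I, was among the steadiest, at 10.51 ± 0.02 (SD) against 10.41 ± 0.11. Its interval ran from −0.49 to 0.28.

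Terminal-route genes were spread to both sides, with 2 of 6 lower and a median of 0.051. C9, the pore-forming component, differed by 0.01 ± 0.20 and C8b, the C8 beta chain, by 0.18 ± 0.21. C8a, the alpha chain and the direct neighbour of C8b, differed by −0.26 ± 0.42, and C8g, the gamma chain, by 0.09 ± 0.30. Hc, which encodes C5, differed by −0.19 ± 0.38 and C6 by 0.33 ± 0.52. The intervals of C6 (−0.88 to 1.54) and Masp1 (−1.62 to 0.97) were the widest among the members. A 2-fold higher level of C6 and a 2-fold lower level of Masp1 lie within them.

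Membrane regulators, which shield host cells, stood near 0 in the mean. Cd59a, which stops pore formation, differed by 0.004 ± 0.34 and Cd55, which speeds decay of convertases, by 0.08 ± 0.21. Cd46, a cofactor of factor I found in mice mainly in testis, lay under the filter at 2.31 ± 0.52 (SD) and 2.23 ± 0.19.

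**Figure D3:**
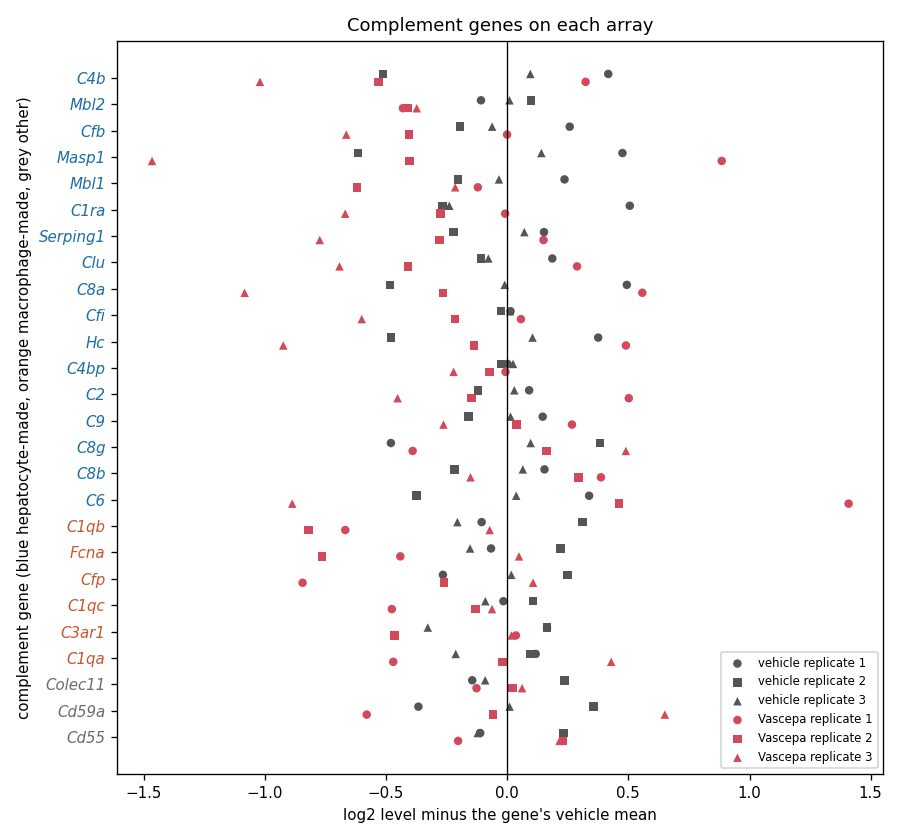
Level of each tested complement gene on each array, as the log2 level minus the gene's vehicle mean (horizontal axis), with vehicle arrays in grey and Vascepa arrays in red. Vascepa replicate 1 (circles) and Vascepa replicate 3 (triangles) are the highest and lowest of all arrays for Masp1, C6, C8a and Hc, farther apart than the group means of any member.

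The widest differences in complement genes were between arrays of the same group. In 25 of 26 members, all but Mbl2, the wider of the 2 within-group ranges exceeded the difference between groups, as it did in 96.2% of all genes. Some members spanned more than nearly all genes. The Vascepa range was 2.35 for Masp1 and 2.30 for C6, wider than in 99.4% and 99.2% of genes, and 1.64 for C8a and 1.41 for Hc. Genes described for this pattern were chosen after their values were seen.

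Masp1 spanned the most. It read 9.10, 7.81 and 6.75 on Vascepa replicates 1, 2 and 3 and 8.69, 7.60 and 8.35 on the vehicle arrays. C6, which joins C5b in the pore, read 9.02, 8.07 and 6.72 against 7.95, 7.23 and 7.65. C8a read 9.76, 8.94 and 8.12 against 9.69, 8.72 and 9.19, and so had its lowest vehicle value on replicate 2 as Masp1 and C6 did. Hc read 10.94, 10.32 and 9.53 against 10.83, 9.97 and 10.56.

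C8g and Cd59a ran the other way. C8g read 9.91, 10.46 and 10.79 on Vascepa replicates 1, 2 and 3 and 9.82, 10.68 and 10.40 on the vehicle arrays. Cd59a read 9.62, 10.14 and 10.85 against 9.84, 10.56 and 10.21. The chains of C8 therefore did not share an array profile, with C8a lower and C8g higher by 0.88 on Vascepa replicate 3 than on Vascepa replicate 1.

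The spread within each group followed a like ordering of the members. From Vascepa replicate 1 to Vascepa replicate 3 the level was lower in 15 of 17 hepatocyte-made members, the exceptions being C8g and Mbl2, and from vehicle replicate 1 to vehicle replicate 2 it was lower in the same count, with the same sign in 17 of 17. Over all 13493 genes tested, 7602 were lower in the first difference and 7018 in the second, and 69.8% had the same sign in both. Macrophage-made members were higher in 5 of 6 and 4 of 6. Across the 26 members these 2 within-group differences, which share no array, correlated at r = 0.894 (Spearman 0.901), and over all genes tested at r = 0.643 (Spearman 0.608). Among the 17 hepatocyte-made members alone r was 0.845 (Spearman 0.767), and among the 6 macrophage-made members 0.449 (Spearman 0.429). The correlation is across genes, which are not independent replicates, and the array pairs were picked after the values were seen. Neither the share of equal signs nor the correlation was computed among bright genes alone.

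**Figure D4:**
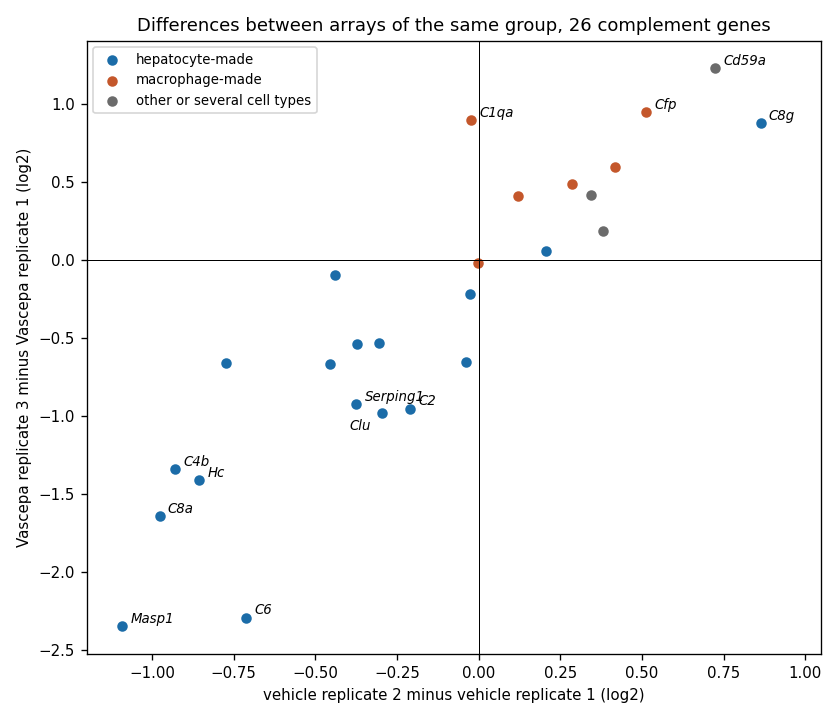
Differences between arrays of the same group for 26 complement genes, with vehicle replicate 2 minus replicate 1 on the horizontal axis and Vascepa replicate 3 minus replicate 1 on the vertical axis, both in log2 units. Masp1, C6, C8a, Hc and C4b lie at the lower left and C8g, Cd59a and Cfp at the upper right. In 25 of 26 genes the sign is the same on both axes, C1qa being the exception, against 69.8% of all genes tested. The share among bright genes alone was not computed.

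Other measures moved with this ordering. The mean level of 75 small nucleolar RNA probes was 5.57, 6.36 and 5.79 on vehicle replicates 1, 2 and 3 and 5.42, 6.48 and 7.01 on the Vascepa arrays, highest where Masp1, C6 and C8a were lowest within each group. The median of 12 hepatocyte markers relative to the vehicle mean was 0.027, −0.066 and 0.0016 in vehicle livers and 0.052, −0.078 and −0.48 in Vascepa livers. Hepatocyte-made complement had the same order with a larger spread, with values of 0.19, −0.20 and 0.024 in vehicle livers and 0.27, −0.26 and −0.66 in Vascepa livers. The median of 7 sinusoidal endothelial markers was 0.042, −0.063 and −0.037 in vehicle livers and 0.086, −0.067 and −0.39 in Vascepa livers. Not every marker of that list followed it, since Clec4g read 7.24, 8.00 and 7.34 in vehicle and 7.22, 7.73 and 7.82 in Vascepa livers. Between groups, 5 of the 7 had lower means in Vascepa livers (median difference −0.078, beside −0.063 over all genes). Hepatocyte markers differed widely in spread over the 6 arrays, and not all shared the order of their median. Apoc3 ran the other way, at 7.05, 7.58 and 7.27 on vehicle replicates 1, 2 and 3 and 6.98, 7.42 and 7.61 on the Vascepa arrays. Ttr was highest on vehicle replicate 2 (13.01). Albumin (Alb), the defining hepatocyte product, read 13.18 to 13.33, whereas Tat, a hepatocyte enzyme of tyrosine breakdown, read 10.17 to 12.33, Hnf4a, a hepatocyte transcription factor, 7.65 to 9.10 and Apob, the lipoprotein component, 11.34 to 12.52. The part of these measures in the complement values was not tested.

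**Figure D5:**
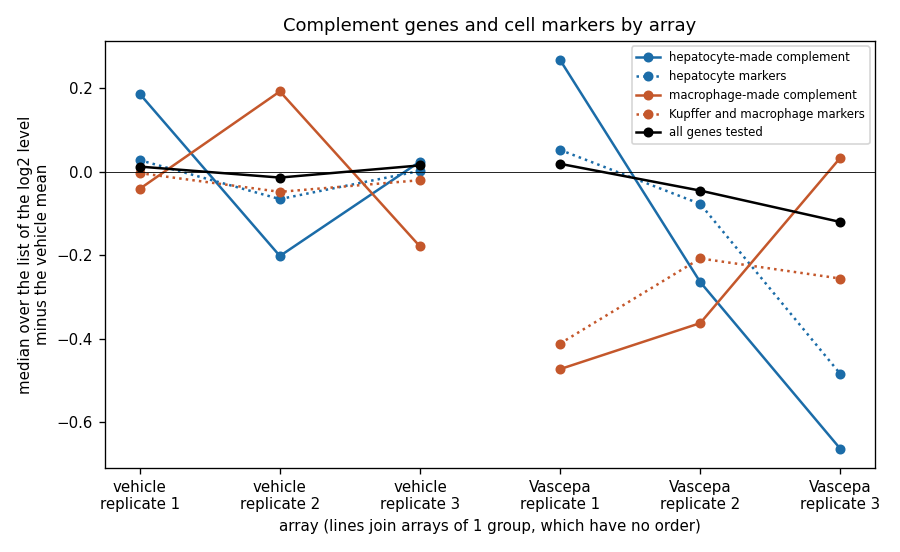
Median over each gene list of the log2 level minus the vehicle mean, by array, for hepatocyte-made and macrophage-made complement genes, for markers of hepatocytes and of Kupffer cells and macrophages, and for all genes tested. Hepatocyte-made complement is highest on Vascepa replicate 1 (0.27) and lowest on Vascepa replicate 3 (−0.66), and macrophage-made complement is lowest on Vascepa replicate 1 (−0.47).

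With the small nucleolar RNA level as a covariate, member values shifted in size and some in sign, and none passed. C6 stood at 0.83 (limma, adjusted p = 0.554), Cfp at −0.57 (adjusted p = 0.680), C1qb at −0.66 (adjusted p = 0.704), Mbl2 at −0.43 (adjusted p = 0.769) and Fcna at −0.49 (adjusted p = 0.803). The median of hepatocyte-made members went from −0.26 to −0.052 and that of macrophage-made members from −0.28 to −0.41. Across all genes this fit called 3, Cyp2b13, Cyp2b9 and Orm3, none of them a member.

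Further genes of the complement system, outside the 31, were mostly lower in the mean as well. Of a list of 25 such genes 16 were tested, and 14 were lower (87.5%) and 2 higher with a median of −0.31. Over all genes tested 60.1% were lower, and 73.3% of those at or above the 75th percentile of intensity. From the list 0 passed the adjusted threshold and 2 had an unadjusted p under 0.05, both lower, against 1.64% of all genes in that direction. Vsig4, the macrophage receptor for C3b and iC3b, read 7.66, 7.61 and 7.40 in vehicle livers and 6.82, 7.11 and 7.15 in Vascepa livers, with no overlap (−0.53 ± 0.18). Itgb2, the beta chain of complement receptors 3 and 4, differed by −0.56 ± 0.23, also without overlap. Colec10, a collectin that pairs with Colec11, differed by −0.48 ± 0.21 without overlap, and Cpn1, the catalytic chain of the carboxypeptidase that inactivates C3a and C5a, by −0.47 ± 0.26 with overlap. Their adjusted p was 0.976 each (limma). Groups did not overlap in 4 of the 16, against 8.24% of all genes. Vsig4 was also counted among the macrophage markers above and Colec10 among the stellate cell markers, so these lists are not separate.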

How the data were processed

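The deposited table held RMA values on the log2 scale that the authors made, for 41345 transcript clusters (called probes here) on 6 arrays. Per the submitters' processing notes they used Affymetrix Expression Console and RMA, which corrects background, quantile-normalizes arrays and summarises each cluster's probes, which shrinks differences of dim genes. For software versions and the genome build: not given in the sources used here. Without scan dates or slide positions no batch was tested. The number of arrays limits the precision.

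Gene names came from the platform annotation: 23521 probes had 1 symbol, 1814 several and 16010 none. Symbols were updated by gene ID for 23328 probes through a RefSeq table of GRCm38.p6, which served only for names and neighbours. Promoter sequences and their positions came from a RefSeq promoter table of the same build. The brightest single-symbol probe stood for each gene if its mean level reached the median level over all probes (2.65), which gave 13493 genes. Vascepa was compared with vehicle with limma 3.58.1 in R 4.3.3 (lmFit, eBayes, no covariate), and p-values were adjusted by Benjamini-Hochberg over all 13493. The shared Masp2 probe came from a second fit that included such probes, and genes under the filter from a fit without it.

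Members, their grouping by source cell, the lists and the naming rule were chosen with earlier results of these data known. Values on every array were given for members with an unadjusted p under 0.1 or an absolute difference of at least 0.4, for the C1q genes and the shared probe, and, chosen after their values were seen, for Mbl1, Fcna, Cfi and the genes of the pattern between arrays; Vsig4 and the 4 genes of smallest p were named from the list of other complement genes. The fit was tested on 20 simulated sets with 200 changed genes each and noise drawn separately for each gene. Of the changed genes, 27.7% passed the adjusted threshold at a log2 difference of 1 and 76.7% at 2. The real arrays shared a pattern across genes, with the 2 within-group differences correlated at r = 0.643 over all genes. Such noise lacks that pattern, so these shares may not hold for the real arrays. Alternatives were the filter, normalization, probe rule, prior, array weights, a small RNA covariate, a replicate block and leaving out each array.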

Additional observations from a re-analysis of the deposited data

How the results depend on the processing

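No member passed the adjusted threshold in the main fit or in any alternative but array quality weights. These weights put 39.5 on Vascepa replicate 2 and 0.178 to 2.33 on the others. They gave 4100 genes at the adjusted threshold, 5902 at an unadjusted p under 0.05 and 15 members there, 9 of them past the adjusted threshold. The small RNA covariate gave 3 genes, 824 and 5 members, with a members' median of −0.11. Without a filter 757 genes were at the unadjusted level and with the 75th percentile filter 106 and 0 members. The trended prior and the replicate block gave 0 members and centring gave 2 (C1qb and Mbl2). Leaving out single arrays gave 141 to 2018 genes, 0 to 4 members and a members' median of −0.33 to −0.092. The shared Masp2 probe stayed lower throughout, at −0.29 to −0.043 with single arrays left out. Whether the replicate numbers pair the samples could not be decided from the values. Deviations of same-numbered arrays from their group means correlated at 0.606, 0.108 and −0.129, so these arrays were not consistently alike. With 3 arrays per group, weak correlations cannot exclude pairing. Best partners were not all of the same number. The replicate block could not turn a member's sign, since each number occurs once in each group. Its 20 of 26 lower members therefore repeat the main fit.

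Signs turned in 12 members, among them C6 (0.33) and Masp1 (−0.33). Quantile normalization again gave 0.090 in C1qa, 0.095 in C2 and 0.10 in Colec11, and centring gave −0.062 in C9 and −0.072 in Cd59a. Array weights gave 0.091 in C1qa, −0.050 in Cd59a and 0.077 in Colec11. The small RNA covariate gave 0.18 in C2, 0.14 in C8a, −0.16 in C8g, −0.046 in Cd55, −0.30 in Cd59a, 0.16 in Hc and 0.24 in Masp1. With single arrays left out the values ran from −0.25 to 0.20 in C1qa, −0.30 to 0.18 in C2, −0.30 to 0.027 in C3ar1, −0.21 to 0.94 in C6, −0.67 to 0.15 in C8a, −0.15 to 0.33 in C8g, −0.11 to 0.15 in C9, −0.32 to 0.30 in Cd59a, −0.086 to 0.10 in Colec11, −0.53 to 0.18 in Hc and −0.93 to 0.24 in Masp1. Without Vascepa replicate 1, C4b, Cfb, Clu and Masp1 had an unadjusted p under 0.05, as did 2018 of all 13493 genes. Without Vascepa replicate 3, C1qb, C6, Fcna and Mbl2 did, as did 351 of all genes. The other 14 members kept their direction in every alternative. Direction could not turn with another filter, probe rule or prior or with the replicate block, since these left each tested member's difference unchanged. The causes of the sign changes were not tested.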
